A study of Mus musculus with 18 samples.

Results

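A set of 10 genes of antigen presentation by the major histocompatibility complex (MHC) was followed in RNA from mouse colon crypts. They were the rows of the deposited gene count table with the symbols H2-Aa, H2-Ab1, H2-Eb1, Cd74, Ciita, H2-DMa, H2-K1, H2-D1, B2m and Tap1. All 10 were found once each among the 24047 gene symbols of the table, and each was described in all 18 libraries.

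MHC molecules display peptides on the cell surface for T cells to inspect. Class I molecules, a heavy chain (here H2-K1 or H2-D1) with the light chain beta-2 microglobulin (B2m), are carried by nearly every cell and show peptides from inside the cell, which the transporter subunit Tap1 helps to pump into the endoplasmic reticulum. Class II molecules, an alpha and a beta chain, show peptides of material taken up from outside, and are made by dendritic cells, macrophages and B cells and, when interferon gamma or other signals induce the transactivator Ciita, by intestinal epithelial cells as well.

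The libraries came from crypt epithelial cells released with EDTA from the colon of C57BL/6 mice, in 6 groups of 3. The label Ern2-/- stands for loss of Ern2, which encodes an endoplasmic reticulum stress sensor of mucosal epithelia. WT mice and mice with this label were kept germ free (GF) or were raised with a conventional microbiota (CONV). Others of both labels were germ free until a single gavage with the cecal contents of WT donors and examined after 14 days (COLONIZED). The age of the mice that gave these libraries, and whether each library came from a separate mouse, were not given in the labels, so p-values measure the spread between these libraries. The comparisons asked whether microbes, and the Ern2 label, changed the expression of these genes. How the Ern2 allele was made was not given in the sources used here.

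Library totals ran from 5865619 to 23154481 counts, with the 3 GF-WT libraries among the deepest and CONV-Ern2-/- replicates 2 and 3 and CONV-WT replicate 3 the shallowest. Ern2 itself was counted at 1909 to 3100 normalized reads in the 9 WT libraries and at 386 to 3336 in the 9 libraries labelled Ern2-/-, with 3 of the latter above the lowest WT value: 2877 and 3336 in GF-Ern2-/- (replicates 1 and 3) and 2567 in COLONIZED-Ern2-/- replicate 1. Which part of the gene was deleted was not known here, so genotype directions below refer to the labels. The 7 epithelial marker genes were detected in every library and summed to 99240 to 160207 normalized counts, whereas the 14 leukocyte markers in the table summed to 105 to 391. Transcripts of Y-linked genes were above 1 CPM in none of the 3 GF-WT libraries, in all 3 CONV-Ern2-/- libraries and in 1 or 2 libraries of each other group, so sex was not balanced between groups.

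On the mouse genome build GRCm38 (mm10, the build named in the submitters' processing notes), 7 of the genes lie in the MHC on chromosome 17. Their spans in the GENCODE vM21 annotation are chr17:33996017-34000347 for H2-K1, chr17:34119541-34139101 for H2-DMa, chr17:34187553-34197225 for Tap1, chr17:34257689-34269419 for H2-Ab1, chr17:34282744-34287823 for H2-Aa, chr17:34305867-34316674 for H2-Eb1 and chr17:35262730-35267499 for H2-D1. The other three lie outside it: B2m at chr2:122147686-122153083, Ciita at chr16:10480059-10528418 and Cd74 on chromosome 18. Exons of Tap1, H2-DMa and Ciita overlap those of Psmb9, Brd2 and Dexi on the opposite strand, and the strand setting of the counting was not given in the sources used here. Of all 75-base stretches in the annotated transcripts, 3.1% of those of H2-K1 and 5.4% of those of H2-D1 also occur in another gene, mostly other class I genes, so a small part of these counts could be misassigned, and 0% do for the other 8 genes.

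Per kilobase of merged exons, H2-K1, H2-D1 and B2m were far more abundant than the class II genes. Averaged over the 18 libraries, B2m stood at 6080 normalized counts per kb, H2-K1 at 3520 and H2-D1 at 1220, while Tap1 stood at 85.1. Of the class II genes, Cd74 averaged 159 per kb, H2-Ab1 30.2, H2-Eb1 22.7, H2-Aa 12.9, H2-DMa 12.8 and Ciita 1.0. In GF-WT the per-kb means were 6130 for B2m, 92.0 for Tap1 and 53.0 for Cd74, so the order of Tap1 and Cd74 differed from that over all libraries. In that group replicate 3 had a summed count of H2-Aa, H2-Ab1, H2-Eb1 and Cd74 of 296 against 130 and 137 in the others. In bulk RNA, fewer cells that express a gene and less RNA per cell cannot be told apart.

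Classical class II genes are known for a compact promoter in which an X box and a Y box, bound by RFX and NF-Y factors, form the platform on which CIITA acts. The stretches before the RefSeq start sites of H2-Aa and H2-Eb1 (GRCm38.p6, 5′ to 3′ on the strand of the gene) are shown because these genes rose and fell together between libraries. Capitals mark the Y box CTGATTGG, which contains the inverted CCAAT box ATTGG, and in H2-Aa the X2-like motif TGACGTCA. The first stretch is chr17:34287824-34287923 on the minus strand and the second chr17:34305767-34305866 on the plus strand.
H2-Aa: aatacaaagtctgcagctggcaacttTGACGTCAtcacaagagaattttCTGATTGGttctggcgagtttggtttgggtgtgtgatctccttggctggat
H2-Eb1: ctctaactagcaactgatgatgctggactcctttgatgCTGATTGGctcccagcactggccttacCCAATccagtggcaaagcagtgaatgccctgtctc
The Y box lay 51 to 44 bases before the start of H2-Aa and 62 to 55 bases before that of H2-Eb1. Searched on both strands in the 250 bases before each start, these 8 letters were present in 3.83% of 32851 mouse promoter windows, TGACGTCA in 1.55% and ATTGG in 33.8%. Of the other members looked up, Tap1 and H2-D1 also had CTGATTGG, on the opposite strand, and the class II gene H2-DMa did not have these letters in its windows. The remaining capitals in H2-Eb1 are ATTGG on the opposite strand, 35 to 31 bases before the start.

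In the values by library, class II transcripts were high in 2 of the 6 COLONIZED libraries and low in nearly all others. Cd74 encodes the invariant chain, which fills the class II groove until peptide is loaded. Its normalized count was 82.0, 2458 and 48.4 in COLONIZED-WT replicates 1 to 3 and 1113, 282 and 27.1 in COLONIZED-Ern2-/-. In GF-WT it was 69.9, 54.6 and 142 and in GF-Ern2-/- 142, 28.1 and 73.0. In CONV-WT it was 23.6, 62.2 and 20.1 and in CONV-Ern2-/- 47.0, 57.8 and 60.7. The highest library, COLONIZED-WT replicate 2, thus held 122-fold the Cd74 count of the lowest, CONV-WT replicate 3, while the other COLONIZED-WT libraries lay within the GF-WT range or below it.

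H2-Aa and H2-Ab1 encode the alpha and beta chain of I-A, the class II molecule of C57BL/6 mice. H2-Aa was counted at 13.5, 385 and 14.3 in COLONIZED-WT and at 172, 51.3 and 9.03 in COLONIZED-Ern2-/-. The 3 libraries of the other groups gave 12.3, 14.7 and 50 in GF-WT, 44.7, 7.02 and 27.1 in GF-Ern2-/-, 0.943, 16.8 and 9.13 in CONV-WT and 18.8, 15.6 and 22.1 in CONV-Ern2-/-. The lowest value, in CONV-WT replicate 1, was a single read.
H2-Ab1 followed the same libraries. It was at 44.2, 474 and 45.2 in COLONIZED-WT and at 339, 87.3 and 18.1 in COLONIZED-Ern2-/-. It was at 17.7, 31.5 and 68.0 in GF-WT, 32.1, 30.1 and 19.8 in GF-Ern2-/-, 9.43, 22.7 and 40.2 in CONV-WT and 51.2, 33.3 and 30.4 in CONV-Ern2-/-. For both chains, COLONIZED-WT replicate 2 and COLONIZED-Ern2-/- replicate 1 were the highest and second highest of all 18 libraries.

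H2-Eb1 encodes the beta chain of I-E, whose alpha chain is not made in C57BL/6 mice. Its counts were 15.7, 251 and 22.2 in COLONIZED-WT and 125, 37.8 and 12.0 in COLONIZED-Ern2-/-. They were 30.0, 35.7 and 35.4 in GF-WT, the tightest of the groups, against 8.49, 8.89 and 16.4 in CONV-WT, and these 2 groups did not overlap. GF-Ern2-/- gave 45.5, 23.1 and 40.6 and CONV-Ern2-/- 19.8, 28.9 and 38.6.

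Ciita, the transactivator of the class II genes, was scarce, with at most 45 raw reads in a library. Its normalized count was 2.14, 30.8 and 0.794 in COLONIZED-WT and 32.0, 39.6 and 2.01 in COLONIZED-Ern2-/-. It was 6.91, 3.50 and 6.25 in GF-WT, 26.1, 3.01 and 1.04 in GF-Ern2-/-, 1.89, 6.91 and 0 in CONV-WT and 6.27, 2.22 and 0 in CONV-Ern2-/-. The 4 libraries above 20 were COLONIZED-WT replicate 2, COLONIZED-Ern2-/- replicates 1 and 2 and GF-Ern2-/- replicate 1, and in the last of these Cd74 was at 142 and H2-Aa at 44.7, close to the 142 and 50 of the highest GF-WT library. The 2 libraries at 0, CONV-WT replicate 3 and CONV-Ern2-/- replicate 3, were shallow, and a count of 0 allows up to 3 reads, so the gene was not detectable there at this depth.
H2-DMa, a chain of the H2-DM molecule that exchanges the invariant chain fragment for peptide, moved less. It was at 32.1, 122 and 31.8 in COLONIZED-WT, at 89.0, 56.7 and 28.1 in COLONIZED-Ern2-/-, and at 20.7 to 52.4 in the 12 libraries of the other groups. The highest 3 libraries were again COLONIZED.

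**Figure D1:**
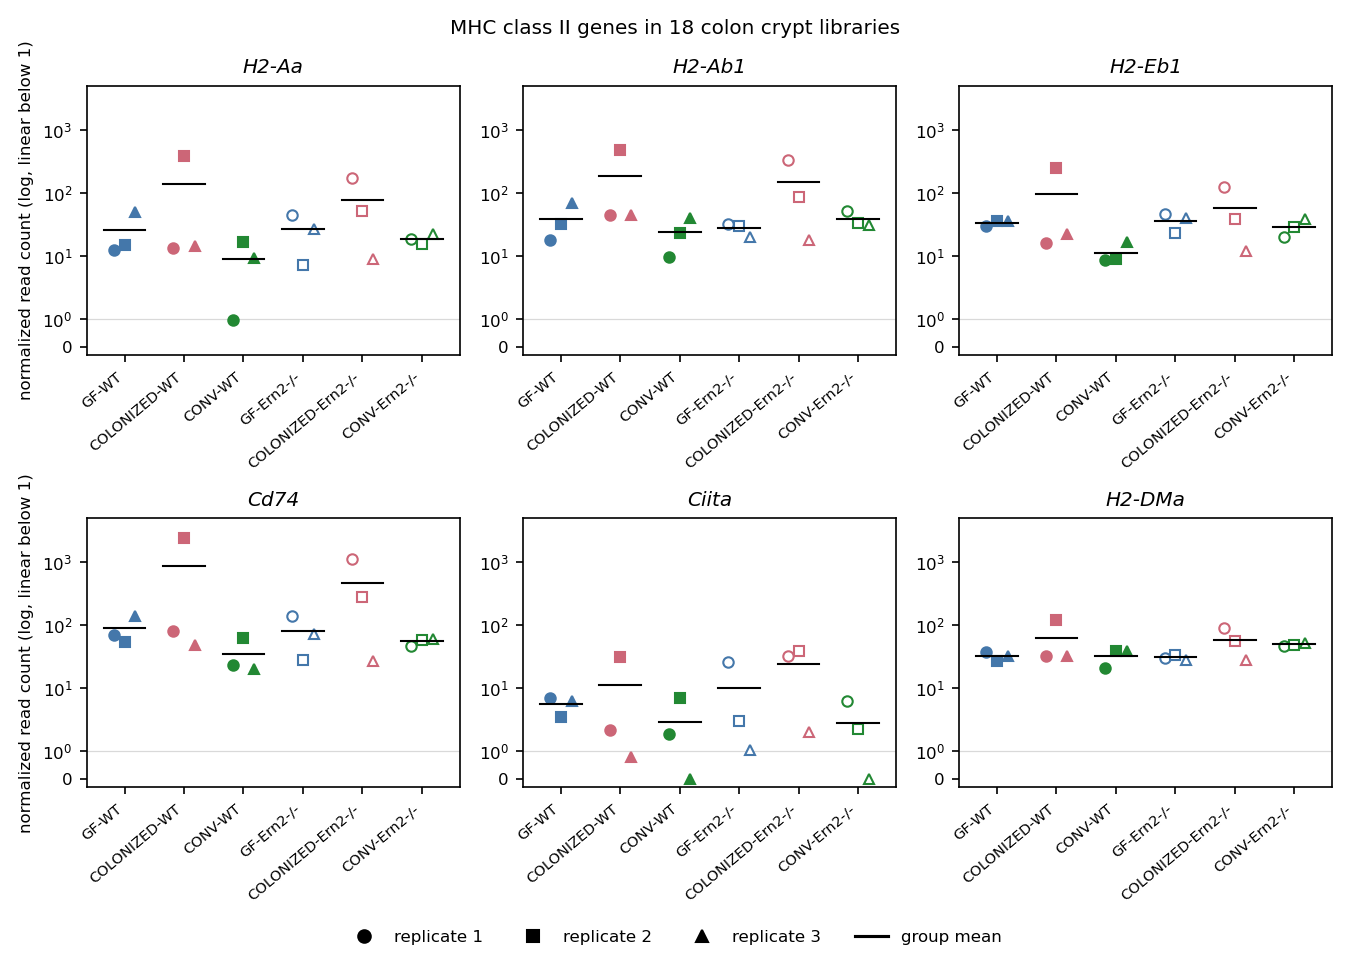
Normalized read counts of the 6 class II genes in each library by group, on a logarithmic axis that is linear below 1. Circles, squares and triangles are replicates 1, 2 and 3, filled symbols are WT and open symbols libraries labelled Ern2-/-, and black lines are group means. COLONIZED-WT replicate 2 and COLONIZED-Ern2-/- replicate 1 stand above the rest, with Cd74 at 2458 and 1113.

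Group means placed COLONIZED-WT first for Cd74, H2-Aa, H2-Ab1, H2-Eb1 and H2-DMa and COLONIZED-Ern2-/- first for Ciita, but these means rested on few libraries. Cd74 averaged 863 ± 1381 (SD, n = 3) in COLONIZED-WT and 474 ± 568 (SD, n = 3) in COLONIZED-Ern2-/-, against 89.0 ± 46.8 in GF-WT and 35.3 ± 23.4 in CONV-WT. Neighboring groups in the order of means overlapped for all 6 genes, except that CONV-Ern2-/- lay above CONV-WT for H2-Eb1 and H2-DMa. Over the 18 libraries the log2 counts of H2-Aa, H2-Ab1, H2-Eb1 and Cd74 correlated pairwise with Pearson r of 0.817 to 0.933, given as a description since the points share depth and preparation.

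Markers of professional antigen-presenting cells had few reads in every library, and their sums in the 2 libraries highest in class II were above those of every library outside GF-WT. The 13 such markers found in the table summed to 17.6 normalized counts in COLONIZED-WT replicate 2 and 17.8 in COLONIZED-Ern2-/- replicate 1, against 12.3, 26.6 and 22.2 in GF-WT. In COLONIZED-WT replicate 2, with 3346 raw reads of Cd74, Itgax had 10 reads, Csf1r 7 and Cx3cr1 5, while the B cell gene Cd79a and the dendritic cell genes Flt3 and Xcr1 had 0. Of the 13 markers, 10, 9 and 9 were at 0 in COLONIZED-WT replicates 1 to 3, and 6, 11 and 7 in those of COLONIZED-Ern2-/-, whose replicates 1 and 2 had Cd74 at 1113 and 282. The 14 leukocyte markers summed to 180, 253 and 155 in COLONIZED-WT and to 159, 258 and 219 in COLONIZED-Ern2-/-, against 105 to 177 in GF-WT, 131 to 219 in GF-Ern2-/-, 164 to 391 in CONV-WT and 216 to 345 in CONV-Ern2-/-. COLONIZED-WT replicate 2 was thus above the GF-WT range and COLONIZED-Ern2-/- replicate 1 within that of GF-Ern2-/-. Across groups the summed antigen-presenting-cell markers ranged from 3.57 to 17.6 in COLONIZED-WT, 3.60 to 17.8 in COLONIZED-Ern2-/-, 5.93 to 14.6 in CONV-WT, 7.31 to 11.1 in CONV-Ern2-/- and 10.4 to 15.0 in GF-Ern2-/-. Within COLONIZED-WT and within COLONIZED-Ern2-/- the library highest in class II was also the highest in these markers, and the part of such cells in the class II counts was not tested. The Y-linked pattern did not follow class II in one way, since COLONIZED-WT replicate 2 lacked it and COLONIZED-Ern2-/- replicate 1 had it.

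**Figure D2:**
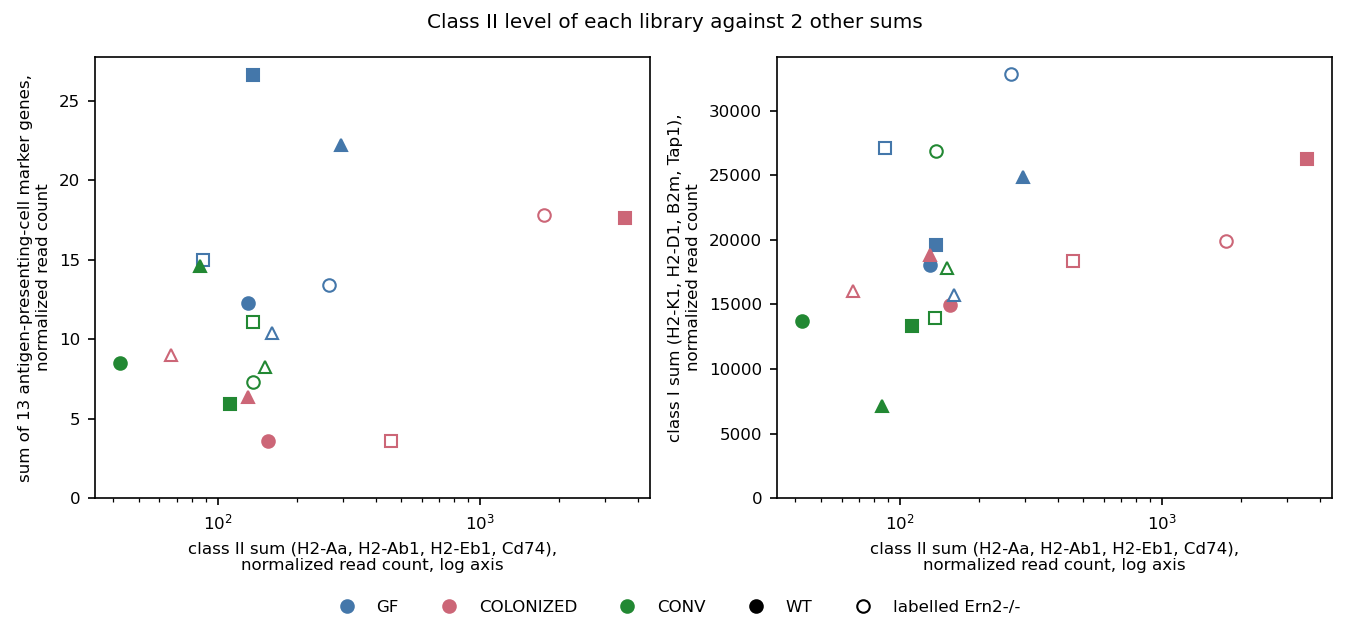
Sum of H2-Aa, H2-Ab1, H2-Eb1 and Cd74 in each of the 18 libraries (horizontal, normalized read count on a logarithmic axis) against the summed markers of antigen-presenting cells (left) and against the sum of H2-K1, H2-D1, B2m and Tap1 (right). COLONIZED-WT replicate 2 and COLONIZED-Ern2-/- replicate 1 lie at class II sums of 3568 and 1749, where the marker sums of 17.6 and 17.8 lie below those of 2 GF-WT libraries and above those of the other 14 libraries.

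Class I genes carry upstream elements for NF-kappa B and interferon regulatory factors. The 180 bases before the RefSeq starts of H2-K1, H2-D1 and B2m (GRCm38.p6) are shown because the products of the heavy chain genes pair with that of B2m, and the counts of these genes moved together. Capitals mark the kappa B letters GGGGATTCC, the interferon regulatory factor core GAAANNGAA, ATTGG and, in H2-D1, CTGATTGG read on the opposite strand. The stretches are chr17:34000348-34000527 on the minus strand, chr17:35262914-35263093 on the plus strand and chr2:122147507-122147686 on the plus strand.
H2-K1: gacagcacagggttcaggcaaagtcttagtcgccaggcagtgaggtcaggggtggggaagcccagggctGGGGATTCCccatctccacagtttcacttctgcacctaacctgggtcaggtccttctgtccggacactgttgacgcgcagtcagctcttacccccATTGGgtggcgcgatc
H2-D1: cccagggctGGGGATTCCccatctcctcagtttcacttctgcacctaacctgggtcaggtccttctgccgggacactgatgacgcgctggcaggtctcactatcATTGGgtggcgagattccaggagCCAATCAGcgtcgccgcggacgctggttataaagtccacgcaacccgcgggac
B2m: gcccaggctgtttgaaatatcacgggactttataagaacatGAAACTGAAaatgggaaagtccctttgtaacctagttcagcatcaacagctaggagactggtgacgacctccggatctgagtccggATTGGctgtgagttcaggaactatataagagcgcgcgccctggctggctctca
GGGGATTCC lay 111 to 103 bases before the start of H2-K1 and 171 to 163 before that of H2-D1, and was present in 0.213% of the 32851 windows of 250 bases, both strands read. GAAANNGAA, 139 to 131 bases before the start of B2m, was present in 7.13%. The letters TTCNNNGAA of the gamma-activated site, present in 7.02% of windows, were not in the searched windows of the 7 members looked up.

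Class I transcripts were lowest in CONV-WT and highest in single libraries of other groups. B2m was counted at 2853, 3319 and 2067 in CONV-WT and at 5177, 4604 and 6027 in GF-WT, with no overlap. It was at 3358, 7640 and 4724 in COLONIZED-WT, 10413, 7182 and 4295 in GF-Ern2-/-, 5392, 6987 and 4650 in COLONIZED-Ern2-/- and 7115, 3573 and 4685 in CONV-Ern2-/-. The 3 CONV-WT libraries were thus the 3 lowest of the 18.
H2-K1 was at 7880, 7223 and 3771 in CONV-WT against 9273, 11384 and 15379 in GF-WT and 8300, 13598 and 10581 in COLONIZED-WT. It was at 15924, 15323 and 8390 in GF-Ern2-/-, 10648, 8037 and 8367 in COLONIZED-Ern2-/- and 15394, 7292 and 9392 in CONV-Ern2-/-. Only CONV-Ern2-/- had a library within the CONV-WT range.

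H2-D1, the other classical heavy chain of this strain, was at 2701, 2528 and 1167 in CONV-WT and at 2907, 3192 and 3092 in GF-WT, again without overlap but with a gap narrower than that between CONV-WT replicates 1 and 3. It was at 2921, 4154 and 3178 in COLONIZED-WT, 4967, 4263 and 2673 in GF-Ern2-/-, 3198, 2779 and 2625 in COLONIZED-Ern2-/- and 4004, 2875 and 3490 in CONV-Ern2-/-.
Tap1, whose product forms the peptide transporter with Tap2, varied most of the class I genes, with an 11.9-fold span between libraries. It was at 251, 290 and 131 in CONV-WT, 694, 457 and 360 in GF-WT and 348, 826 and 352 in COLONIZED-WT. It was at 1561, 316 and 363 in GF-Ern2-/-, 658, 539 and 361 in COLONIZED-Ern2-/- and 362, 240 and 279 in CONV-Ern2-/-. In the order of group means CONV-WT was last for all 4 class I genes and GF-Ern2-/- first, and neighboring groups overlapped except CONV-WT with the group next above it for H2-K1 and B2m. GF-Ern2-/- replicate 1 was the highest library for all 4 class I genes and CONV-WT replicate 3, a shallow library, the lowest.

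**Figure D3:**
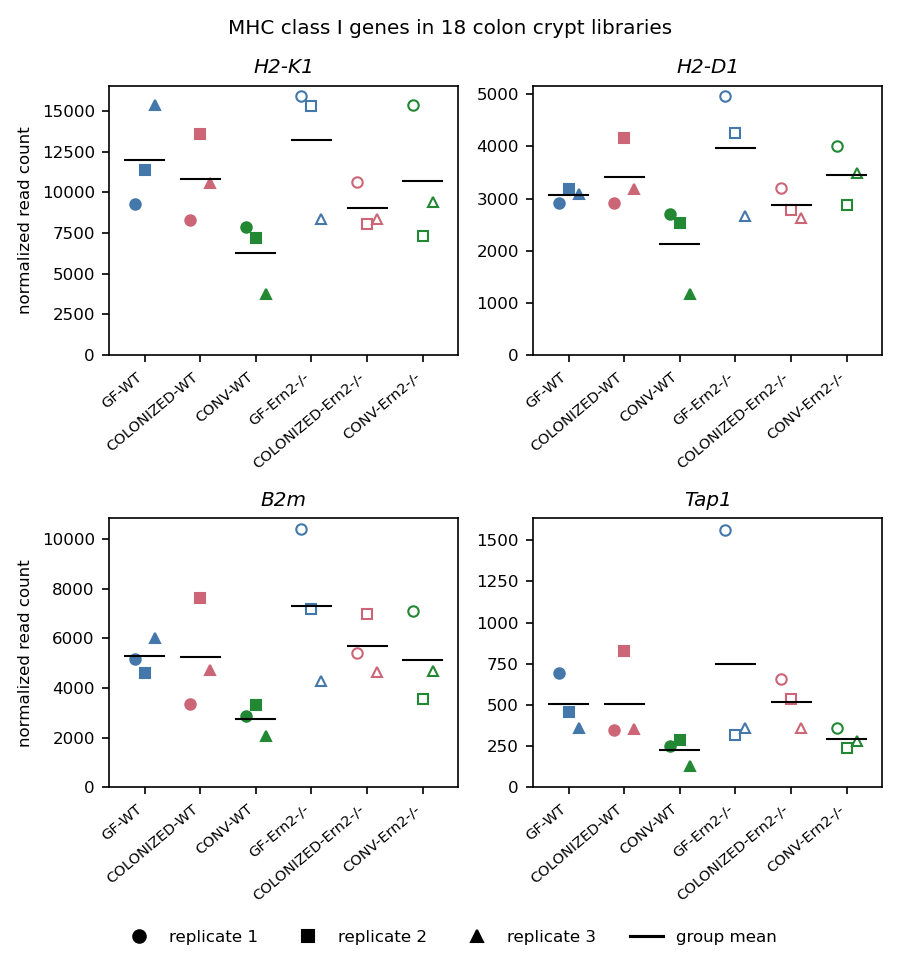
Normalized read counts of the 4 class I genes in each library by group, on linear axes from 0. Symbols are as in the plot of the class II genes. All CONV-WT libraries lie below all GF-WT libraries for each gene, and the highest library is GF-Ern2-/- replicate 1, with B2m at 10413 and Tap1 at 1561.

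Over the 18 libraries the 4 class I genes correlated pairwise with r of 0.632 to 0.913, and each class I gene correlated with each of H2-Aa, H2-Ab1, H2-Eb1 and Cd74 with r of 0.231 to 0.649. The 5 other genes, with a mean of at least 50 normalized counts, whose log2 counts most resembled the mean of the 4 class I genes were Tap2 (r = 0.945) and Tapbp (r = 0.936), the partner subunit of Tap1 and the peptide-loading chaperone tapasin, the intestinal epithelial surface genes Gpa33 (r = 0.894) and Muc13 (r = 0.874), and Sptlc2 (r = 0.876), a gene of sphingolipid synthesis. For the mean of H2-Aa, H2-Ab1, H2-Eb1 and Cd74 they were Psmb8 (r = 0.778) and Psmb9 (r = 0.692), catalytic subunits of the immunoproteasome, the interferon-inducible genes Irgm2 (r = 0.669) and AW112010 (r = 0.662), and Gcg (r = 0.609), which encodes proglucagon in enteroendocrine cells. Psmb8 was highest in COLONIZED-WT replicate 2, at 904, and was at 686 in COLONIZED-Ern2-/- replicate 1 and 665 in GF-Ern2-/- replicate 1, while it was lowest in CONV-WT replicate 1, at 128. Tap2, Tapbp, Gpa33, Muc13 and Sptlc2 were, like the 4 class I genes, all lowest in CONV-WT replicate 3. Each was also lower in every CONV-WT library than in any GF-WT library. Correlations over libraries are a description of these 18 points, which share their preparation.

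Between CONV-WT and GF-WT, a comparison of mice raised with and without microbes, H2-Eb1 and B2m were lower in CONV-WT. H2-Eb1 fell by 1.67 on the log2 scale (SE 0.46, adjusted p = 0.00375 by DESeq2). Its raw counts were low, at 39 to 51 reads in the GF-WT libraries and 9 in each CONV-WT library. B2m fell by 0.95 (SE 0.25, adjusted p = 0.00167 by DESeq2). The log2 fold change was negative for the other members too, except that H2-DMa was level, at -0.01 (SE 0.40) by DESeq2 and 0.02 by edgeR. Tap1, at -1.17 (SE 0.39, adjusted p = 0.0213 by DESeq2), and H2-K1, at -0.94 (SE 0.36, adjusted p = 0.0440 by DESeq2), did not pass the threshold of 0.01, nor did Cd74, at -1.33 (SE 0.59). Over the same 13874 genes tested, 11.0% were called in either direction and 5.28% were called lower, and the median log2 fold change was 0.00 against -0.95 for the 10 members. The groups did not overlap for 5 members, H2-Eb1, H2-K1, H2-D1, B2m and Tap1, each lower in CONV-WT, as was so for 18.1% of all genes tested. H2-DMa averaged 32.5 ± 10.2 and 32.0 ± 4.78 (SD, n = 3 each) in CONV-WT and GF-WT.

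The calls did not hold under every setting, while the log2 fold changes mostly stayed near their values. With edgeR's quasi-likelihood test 0 members passed, with H2-Eb1 at -1.62 and B2m at -0.93, 4 had an unadjusted p below 0.05, and 0.175% of all genes were called. Leaving out any 1 GF-WT library or CONV-WT replicate 1 left 0 calls by DESeq2, with H2-Eb1 from -1.73 to -1.48 and B2m from -1.04 to -0.84, leaving out CONV-WT replicate 2 kept B2m called at -1.10 and left H2-Eb1 at -1.51 uncalled, and leaving out CONV-WT replicate 3 kept both, with B2m at -0.78. With the Y-linked pattern as a covariate 0 members were called, with H2-Eb1 at -1.48 and B2m at -0.98. CONV-WT replicate 1 was the only library of these groups with the pattern. That fit thus amounted to leaving this library out, and was no separate check for sex. With the library total as a covariate 0 were called, with H2-Eb1 at -2.32 (SE 0.87) and B2m at -0.50 (SE 0.28). Every GF-WT total lay above every CONV-WT total, so depth and group were largely confounded in that fit. Beside this contrast, the summed leukocyte markers were 164 to 391 in CONV-WT and 105 to 177 in GF-WT, and the stroma and vessel markers were 192 in CONV-WT replicate 3 against 23.6 to 51.1 in the other CONV-WT and GF-WT libraries. Of these the smooth muscle gene Acta2 was called higher in CONV-WT by 4.08 (SE 1.14, adjusted p = 0.00411 by DESeq2). Their part in the lower MHC counts was not tested.

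Other genes of the pathways, from lists covering the rest of class II and class I presentation, were called in this contrast as follows, where 11.0% of all genes tested were called in either direction and 5.28% lower. In the class II pathway list, 0 of the 8 genes tested rose and 2 fell: Ctss, the cathepsin that trims the invariant chain, went from 5163 to 1100 normalized counts, a log2 fold change of -2.24 (SE 0.27), and Ctsl, another lysosomal cathepsin, changed by -1.31 (SE 0.36). Among 12 tested class I heavy chain genes 1 fell, H2-T23, which encodes the nonclassical molecule Qa-1, at -1.29 (SE 0.30). Of 8 genes of peptide loading 1 fell, Tap2, at -1.46 (SE 0.41), with 255, 269 and 91.3 in CONV-WT against 615, 525 and 547 in GF-WT. None of 6 proteasome genes was called by DESeq2. Of 9 tested genes of interferon signaling, the receptor chain gene Ifngr1 fell by 1.33 (SE 0.33) and Socs1, an inhibitor of the pathway, rose by 2.02 (SE 0.43). The adjusted p by DESeq2 was at most 0.00408 for each of these 6 genes, and by edgeR none was below 0.01.

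**Figure D4:**
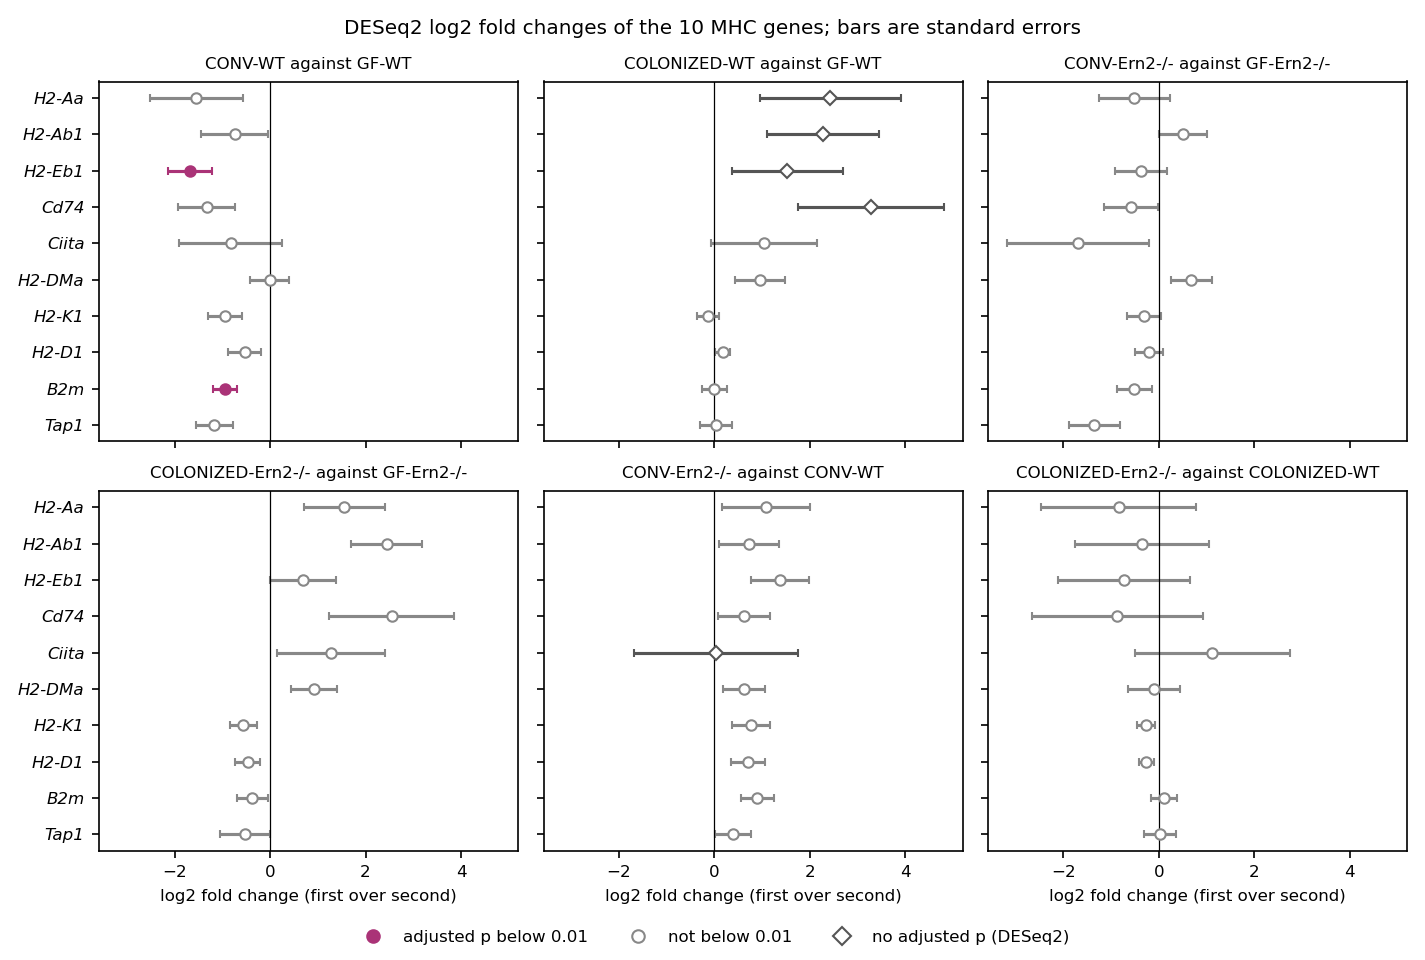
Log2 fold changes of the 10 genes (horizontal, first group over second) with standard errors, by DESeq2, in 6 of the 9 comparisons of pairs of groups. Purple points passed an adjusted p of 0.01, and diamonds have no adjusted p. H2-Eb1 at -1.67 and B2m at -0.95 between CONV-WT and GF-WT are the only purple points.

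Between COLONIZED-WT and GF-WT no member was called. Log2 fold changes were positive for the 6 class II genes, with 3.28 (SE 1.52) for Cd74, 2.43 (SE 1.48) for H2-Aa, 2.27 (SE 1.17) for H2-Ab1 and 1.53 (SE 1.16) for H2-Eb1. COLONIZED-WT replicate 2 alone lay above the GF-WT range for these 4 genes, and DESeq2 gave these 4 genes no p because its filter on outlying counts removed them. Without that filter their adjusted p by DESeq2 ran from 0.0878 to 0.334. The class I genes were level, from -0.14 (SE 0.23) for H2-K1 to 0.17 (SE 0.16) for H2-D1, and the 95% interval for B2m was -0.52 to 0.52. Among the 6 members with a p, 0 had an unadjusted p below 0.05, where 39.5% of all genes tested did. That count leaves out the 4 members with the largest log2 fold changes, so it does not describe the whole set. With edgeR 0 members were called, and 2 of the 9 tested had an unadjusted p below 0.05. Over all genes tested, 18.3% were called by DESeq2 and 4.94% by edgeR. The stroma and vessel markers summed to 19.8 to 31.8 in COLONIZED-WT and 33 to 51.1 in GF-WT, and their part in this contrast was not tested. With the Y-linked pattern as a covariate, DESeq2 called 5 class II members higher, Cd74 at 4.79 (SE 0.52), but in that fit the contrast rested on COLONIZED-WT replicate 2, the library of its group without the pattern.

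In the same contrast some other genes of the pathways were called. Of 8 tested class II pathway genes 1 was called: Ctss fell by 1.25 (SE 0.24), from 4121, 4787 and 6580 in GF-WT to 1476, 2655 and 2337 in COLONIZED-WT. Of 9 tested interferon signaling genes 4 fell and 1 rose, where 18.3% of all genes tested were called in either direction. Ifngr1 fell by 0.92 (SE 0.17), its partner chain Ifngr2 by 0.68 (SE 0.18) and the kinase gene Jak2 by 0.63 (SE 0.19). The other two, named after their values were seen, were Irf2, which fell by 0.61 (SE 0.13), and Irf8, which rose by 0.51 (SE 0.12). The chaperone genes Calr and Pdia3 of the peptide-loading complex rose, by 0.95 (SE 0.16) and 0.54 (SE 0.13), the proteasome activator gene Psme3 rose by 0.41 (SE 0.13), and the class I gene H2-K2 fell by 0.85 (SE 0.22). All of these had an adjusted p of at most 0.00765 by DESeq2, and by edgeR only Calr (adjusted p = 0.00875) and Ifngr1 (adjusted p = 0.00983) passed 0.01. Calr and Pdia3 also serve the folding of other secretory proteins.

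In COLONIZED-Ern2-/-, replicates 1 and 2 lay above the GF-Ern2-/- range for Cd74, H2-Aa and H2-Ab1 and replicate 3 did not. Between COLONIZED-Ern2-/- and GF-Ern2-/- no member was called by DESeq2, against 7.17% of all genes tested. H2-Ab1, at 2.44 (SE 0.75, adjusted p = 0.0146 by DESeq2), came nearest, and Cd74 was at 2.55 (SE 1.31, adjusted p = 0.202 by DESeq2). The 4 class I genes were all negative, from -0.56 (SE 0.28) for H2-K1 to -0.37 (SE 0.32) for B2m. H2-Ab1 and H2-K1 had an unadjusted p below 0.05, as did 25.1% of all genes tested, and edgeR called 0 with 1 below 0.05 and 0.216% of all genes. Leaving out COLONIZED-Ern2-/- replicate 3, the library of its group low in class II, H2-Ab1 at 2.96 (SE 0.61) and Cd74 at 3.10 (SE 0.70) were called higher. Leaving out GF-Ern2-/- replicate 3, H2-K1 at -0.80 (SE 0.21) and H2-D1 at -0.69 (SE 0.19) were called lower, and without the 3 libraries with Ern2 counts in or above the WT range H2-K1 was, at -0.92 (SE 0.24), with 1 GF-Ern2-/- library left that was assumed to vary like the others. In the lists, Ctss fell by 1.27 (SE 0.29), Ifngr1 by 0.73 (SE 0.21) and Ifngr2 by 0.90 (SE 0.25), with an adjusted p of at most 0.00606 by DESeq2, and none passed 0.01 by edgeR.

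Between CONV-Ern2-/- and GF-Ern2-/- no member was called, against 4.33% of all genes tested by DESeq2. Tap1 was at -1.35 (SE 0.54, adjusted p = 0.108 by DESeq2), and was the single member with an unadjusted p below 0.05, against 19.8% of all genes tested. GF-Ern2-/- replicate 1 was at 1561, and the other GF-Ern2-/- libraries, at 316 and 363, lay near the 362, 240 and 279 of CONV-Ern2-/-. H2-DMa was the single member whose groups did not overlap, at 49.4 ± 2.76 in CONV-Ern2-/- and 30.7 ± 3.07 in GF-Ern2-/- (SD, n = 3 each), with a log2 fold change of 0.68 (SE 0.43) and an adjusted p = 0.401 by DESeq2, and 11.6% of all genes tested were higher in CONV-Ern2-/- without overlap. By edgeR 0 members were called or had an unadjusted p below 0.05, and 0.0325% of all genes were called. In the lists, Cd1d1, which presents lipids rather than peptides, was called at -2.23 (SE 0.54, adjusted p = 0.00135 by DESeq2 and 0.0559 by edgeR). The stroma and vessel markers summed to 113 to 155 in CONV-Ern2-/-, 47.7 to 74.2 in GF-Ern2-/- and 16.2 to 19.1 in COLONIZED-Ern2-/-, and their part in the comparisons of these groups was not tested.

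Mice raised with microbes and mice colonized later were also compared. Between CONV-WT and COLONIZED-WT all 10 log2 fold changes were negative, with -4.63 (SE 1.55) for Cd74, -3.96 (SE 1.65) for H2-Aa, -1.19 (SE 0.46) for Tap1, -0.94 (SE 0.36) for B2m and -0.79 (SE 0.34) for H2-K1. None was called by DESeq2, and H2-Aa, H2-Ab1, H2-Eb1 and Cd74 again had no p. Of the 6 members with one, 3 had an unadjusted p below 0.05, B2m, Tap1 and H2-K1, and edgeR called 0 with 7 below 0.05. Over all genes tested, 0.119% were called by DESeq2 and 0% by edgeR, and 9.17% had an unadjusted p below 0.05 by DESeq2. The share below 0.05 by edgeR was not counted over all genes, here or in the other comparisons, so the edgeR counts of members have no such background. The groups did not overlap for H2-Ab1, H2-K1, H2-D1, B2m and Tap1, each lower in CONV-WT, as for 7.88% of all genes tested. The Cd74 and H2-Aa values rested on COLONIZED-WT replicate 2. It held 2458 of Cd74 against 82.0 and 48.4 in replicates 1 and 3, and 385 of H2-Aa against 13.5 and 14.3. Leaving out COLONIZED-WT replicate 3, Cd74 was called at -5.18 (SE 1.06) by DESeq2, whereas leaving out replicate 2 gave 0 calls.

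Between CONV-Ern2-/- and COLONIZED-Ern2-/-, Cd74 was at -3.11 (SE 1.21, adjusted p = 0.0577 by DESeq2), H2-Aa at -2.05 (SE 0.78, adjusted p = 0.0519 by DESeq2), Ciita at -2.89 (SE 1.14, adjusted p = 0.0604 by DESeq2) and Tap1 at -0.81 (SE 0.28, adjusted p = 0.0299 by DESeq2). No member was called, 4 had an unadjusted p below 0.05, as did 30.7% of all genes tested, and 8.59% of all genes tested were called by DESeq2. By edgeR 0 were called, with 3 below 0.05 and 0.282% of all genes called. Leaving out COLONIZED-Ern2-/- replicate 3, DESeq2 called 4 members lower in CONV-Ern2-/-, Cd74 at -3.67 (SE 0.52), H2-Aa at -2.58 (SE 0.63), H2-Ab1 at -2.45 (SE 0.59) and Tap1 at -1.01 (SE 0.29). That library was the one of its group low in class II, with Cd74 at 27.1 against 1113 and 282 in replicates 1 and 2. Leaving out COLONIZED-Ern2-/- replicate 1 or replicate 2 instead, DESeq2 called 0 members. Leaving out CONV-Ern2-/- replicate 1, Tap1 was called, with an adjusted p = 0.00406 by DESeq2. H2-DMb1, the partner chain of H2-DMa, was called in the full comparison at -4.35 (SE 1.12), from 83.3, 20.7 and 15.0 in COLONIZED-Ern2-/- to 4.18, 0 and 0 in CONV-Ern2-/-, whose libraries at 0 were the shallowest of the series. In the same contrast the class I genes H2-K2 and H2-T3 rose by 1.45 (SE 0.27) and 1.15 (SE 0.29) and Cd1d1 fell by 1.82 (SE 0.48), Pdia3 fell by 0.84 (SE 0.19) and Ifngr2 rose by 0.78 (SE 0.14), and none of these list genes passed 0.01 by edgeR. Krt20, a marker of differentiated surface cells, was higher in CONV-Ern2-/- by 1.54 (SE 0.18), and its part in these values was not tested.

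The Ern2 label was compared within each microbial state. Between CONV-Ern2-/- and CONV-WT the log2 fold changes were positive except that of Ciita, which was level at 0.04 (SE 1.72), with a median of 0.72 against 0.02 for all genes tested, but none was called by DESeq2, where 3.03% of all genes were. B2m was at 0.90 (SE 0.34, adjusted p = 0.0959 by DESeq2) and H2-Eb1 at 1.38 (SE 0.61, adjusted p = 0.185 by DESeq2), and both had an unadjusted p below 0.05, as did 18% of all genes tested. The groups did not overlap for H2-Eb1, H2-DMa, H2-D1 and B2m, each higher in CONV-Ern2-/-, as was so for 9.75% of all genes tested. By edgeR 0 members were called, 2 had an unadjusted p below 0.05, and 0% of all genes were called. With the library total as a covariate, H2-K1 at 1.20 (SE 0.26) and B2m at 1.19 (SE 0.25) were called higher by DESeq2. Ctss was called higher in CONV-Ern2-/- by 1.36 (SE 0.37) and H2-K2 by 1.68 (SE 0.41) with DESeq2, and neither passed 0.01 by edgeR. Krt20 was at 17540 to 22110 in CONV-Ern2-/- and at 3053, 3875 and 14405 in CONV-WT. The 7 epithelial markers summed to 150029 to 153790 in CONV-Ern2-/- and 99502 to 114844 in CONV-WT, without overlap. The stroma and vessel markers summed to 113 to 155 in CONV-Ern2-/- and to 23.6, 40.5 and 192 in CONV-WT. The part of these markers in the MHC values was not tested.

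In GF mice no difference with the label was detected in these genes. Between GF-Ern2-/- and GF-WT the log2 fold changes ran from -0.51 (SE 0.57) for H2-Ab1 to 0.88 (SE 1.12) for Ciita, and 0 members were called or had an unadjusted p below 0.05 by DESeq2 or edgeR. Over all genes tested, 0.0349% were called by DESeq2 and 0% by edgeR, and 1.48% had an unadjusted p below 0.05 by DESeq2. The 95% interval for B2m was -0.14 to 1.09. Between COLONIZED-Ern2-/- and COLONIZED-WT 0 members were called or had an unadjusted p below 0.05 by either tool, where 1.37% of all genes were called by DESeq2 and 0.00786% by edgeR, and 23.2% had an unadjusted p below 0.05 by DESeq2. Cd74 was at -0.87 with a 95% interval of -4.39 to 2.64, and H2-K1 at -0.27 with an interval of -0.65 to 0.11.

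Whether the response to microbes differed with the label was tested by interaction terms on 12 libraries each. For CONV against GF, H2-Eb1 differed by 1.26 (SE 0.63, adjusted p = 0.560 by DESeq2) and B2m by 0.43 (SE 0.49). No member was called, 1 had an unadjusted p below 0.05, as did 9.07% of all genes tested, and 0.177% of all genes were called by DESeq2. By edgeR 0 members were called, 1 was below 0.05, and 0% of genes were called. For COLONIZED against GF, H2-D1 was at -0.63 (SE 0.31, adjusted p = 0.864 by DESeq2) and was the single member with an unadjusted p below 0.05, against 5.76% of all genes tested. There 0 members were called, with 0.0280% of all genes called by DESeq2 and 0% by edgeR, where 0 members were below 0.05. The fall of H2-Eb1 and B2m between CONV-WT and GF-WT was therefore not shown to differ between the labels.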

How the data were processed

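RNA was extracted from intact colon crypts of 6 groups with 3 libraries each. Per the study's methods, stranded mRNA libraries were read from 1 end over 75 cycles, and the authors used the VIPER pipeline with STAR. The deposited values were raw read counts per gene symbol, neither normalized nor pooled. The submitters' processing notes name STAR, DESeq2 and mm10. Their versions, the gene models and whether counting used strand were not given in the sources used here. Library totals were 5865619 to 23154481 counts, so a count of a few reads is uncertain in the shallowest libraries, and 0 columns of the table were unmatched to a sample.

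Counts were divided by the size factors of DESeq2 1.42.0 over 18 libraries (R 4.3.3), giving the normalized counts. The DESeq2 Wald test was run over the whole table for 9 pairs of groups (6 libraries each) and 2 interactions (12 libraries each). Genes counted as called had an adjusted p (Benjamini-Hochberg) below 0.01, the study's own threshold. Genes without an adjusted p after the filters were left as such. Fits were tested on simulated data. Alternatives were edgeR 4.0.16, TMM size factors, filterByExpr, 1 fit of all libraries, covariates for the Y-linked pattern and library total, the replicate block and leaving out libraries. The fits without the Cook filter, without both COLONIZED libraries highest in class II and without libraries labelled Ern2-/- with Ern2 counts as in WT were added after seeing the data.

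The 10 members and all lists were chosen with earlier results of these data known. Besides the members, the text names up to 3 called genes of largest change per list and comparison and the 5 genes most alike in log2(normalized count + 1). H2-DMb1 reads could be shared with its paralog H2-DMb2. Promoter stretches came from RefSeq (GRCm38.p6), where 7 members were looked up. Leukocyte markers Jchain and Adgre1 had no row under these symbols.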

Additional observations from a re-analysis of the deposited data

How the results depend on the processing

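Of the comparisons, only that of CONV-WT with GF-WT had calls, 2 members. It had 2 under TMM size factors, filterByExpr and without the Cook filter, and 0 under edgeR, 1 fit of 18 libraries, the Y-linked covariate and the library total. With the replicate block it had 2, B2m and Tap1, so H2-Eb1 was not called. Leaving out 1 library at a time gave 0 to 2. Elsewhere the full comparisons had 0. The Y-linked covariate gave 5 for COLONIZED-WT against GF-WT, 2 for CONV-WT against COLONIZED-WT and 4 for CONV-Ern2-/- against COLONIZED-Ern2-/-. The library total gave 2 for CONV-Ern2-/- against CONV-WT, and the replicate block gave 1 for CONV-WT against COLONIZED-WT, Cd74 at -2.78. Leaving out libraries labelled Ern2-/- with Ern2 counts as in WT gave 1 for COLONIZED-Ern2-/- against GF-Ern2-/-. Leaving out 1 library gave 0 to 2 for COLONIZED-Ern2-/- against GF-Ern2-/-, 0 to 1 for CONV-WT against COLONIZED-WT and 0 to 4 for CONV-Ern2-/- against COLONIZED-Ern2-/-. In the Y-linked fit of CONV-Ern2-/- against COLONIZED-Ern2-/-, COLONIZED-Ern2-/- replicate 3 was the only library without the pattern. That fit therefore amounted to leaving this library out, with Cd74 at -3.67 in both. Likewise CONV-WT replicate 1 was the only library with the pattern in CONV-WT against GF-WT. For COLONIZED-WT against GF-WT the contrast rested on COLONIZED-WT replicate 2. These fits did not separate sex from single libraries. The cause of the other differences was not tested. Where a group was left with 1 library, that library was assumed to vary like the others. Replicate numbers were not shown to pair the samples: correlations of same-numbered libraries ran from -0.28 to 0.633, and in no comparison were all 3 above 0.1. The block changed no other count of calls. With 3 libraries per group, and Ciita at no more than 45 reads, small differences in this gene were not detectable.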

Other observations

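Genes outside the members, chosen after their values were seen, stood out beside them. Nlrc5, the transactivator of class I genes, was at 157 normalized counts in GF-Ern2-/- replicate 1, the library highest in all 4 class I genes. It was at 54.4 in COLONIZED-WT replicate 2 and at 55.5 and 54.9 in COLONIZED-Ern2-/- replicates 1 and 2, the same libraries in which Ciita was above 20, and at 69.1 in GF-WT replicate 1, where Ciita was at 6.91. In the other 13 libraries it was at 20.1 or less. H2-K2 was at 10.0 in GF-Ern2-/- replicate 2, the library with the lowest Ern2 count of 386, and at 49.0 to 353 in the others. In CONV-Ern2-/-, where Ern2 was at 998, 1622 and 1487, H2-K2 was at 241, 227 and 353. A link between these genes was not tested.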
